A study of Mus musculus with 18 samples.

Results

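The central area of the thyroid lobe was compared between mice that had undergone partial thyroidectomy (dissected, in the labels) and mice that had not (normal), using the 5 arrays labelled dissected central and the 5 labelled normal central out of 18 arrays in all. The series was described by its title as work on how thyroid cells proliferate once part of the gland is removed. All tissue came from the thyroid of male C57BL/6 mice, and each area, from the right or left lobe, was cut by laser capture microdissection from a frozen section. RNA was extracted with Trizol, amplified with the RiboAmp PLUS kit, labelled with the Arcturus Turbo kit in Cy5 and hybridised against a Cy3-labelled commercial RNA of Swiss Webster mice, pooled from thymus, testicle, spleen, ovary, lung, liver, kidney, heart, embryo and brain, without thyroid. The remaining arrays held the peripheral area, 3 of normal and 5 of dissected lobes, and served for the shared estimate of spread and for the comparison between areas. The labels give no age, no time after surgery and no sham operation, and they do not tie an area to a mouse. Areas of 1 group may therefore share animals, in which case the p-values below are too small. Each value is the log2 ratio of tissue over reference for 1 probe per gene, so a positive value means more signal in tissue than in the pool.

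The thyroid is built of follicles whose epithelial cells, the thyrocytes, iodinate thyroglobulin and release thyroid hormone under the control of thyrotropin. Calcitonin-secreting C cells lie between and within the follicles and gather in the middle of each lobe, so a captured central area holds both cell types together with capillaries, connective tissue and resident immune cells such as mast cells and macrophages. Removal of part of the gland lowers hormone output, raises thyrotropin and leaves a wound. In bulk RNA of this kind, fewer cells of a type and less RNA per cell cannot be told apart.

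The label was first checked against defining genes. Tg, the thyroglobulin precursor of the hormone, lay at 1.34 ± 0.23 (SD, n = 5) in normal and 1.01 ± 0.27 (SD, n = 5) in dissected central areas, above the pooled reference on all 10 arrays. Calca, which encodes calcitonin, lay at 3.17, 3.28, 3.96, 2.66 and 3.01 on normal central arrays 1 to 5, and at -0.57, 3.88, 3.82 and 3.05 on dissected central arrays 2 to 5 (dissected central 1 has no value, because the scanner program flagged the spot as non-uniform). The calcitonin signal was thus high on 8 of the 9 arrays with a value and below the reference on dissected central 2 alone. Its Cy5 spot was saturated on 2 normal arrays, and its Cy3 intensity ranged from 18233 to 204897 although the reference was the same throughout, so the ratio of this probe is approximate. Its fitted difference was -0.67 (SE 0.66), or 0.54 on the scan day of arrays 3 and 4 and -1.92 on the other, and its other bright probe gave -1.01. Pax8, a thyrocyte transcription factor, differed by -0.03 (SE 0.20). The sign of Pax8 turned under 6 of 36 other settings. Slc5a5, the iodide transporter, and the thyrocyte factor Foxe1 reached a level well above background on fewer than 3 arrays and were not tested.

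In the tissue channel, between 37.0% and 43.0% of probes for genes exceeded background clearly on normal central arrays and 28.1% to 39.3% on dissected central arrays. Dissected central 1 and 2, at 29.5% and 28.1%, were the weakest of the 10. Each of the 5 slides held the normal and dissected central areas of 1 number, with normal areas always hybridised at position 1 and dissected areas at position 3, so surgical state and position on the slide cannot be told apart. Slides 1 and 2, with arrays 3 and 4 of each group, were scanned on one day and the other 3 slides on another.

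Across 14683 genes, no gene differed between dissected and normal central areas at a limma adjusted p under 0.05, and the smallest adjusted p was 0.114. At an unadjusted p under 0.05 there were 771 genes (5.25% of those tested), 287 higher in dissected areas (1.95%) and 484 lower (3.3%). Higher calls were thus 37.2% of the 771. That split depended on how arrays were centred, since plain median centring without loess moved the median difference of all genes from -0.0061 to -0.15 and left 6.52% of such genes higher. Differences were small for most genes, with a median size of 0.13 on the log2 scale and a 99th percentile of 0.78, while the 95% interval of a typical gene reached 0.41 to either side. A difference of the median size was not detectable at that precision. Arrays of the groups did not overlap for 148 genes (1.01%), 63 with all dissected arrays above all normal ones (0.429%) and 85 with all below (0.579%).

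**Figure D1:**
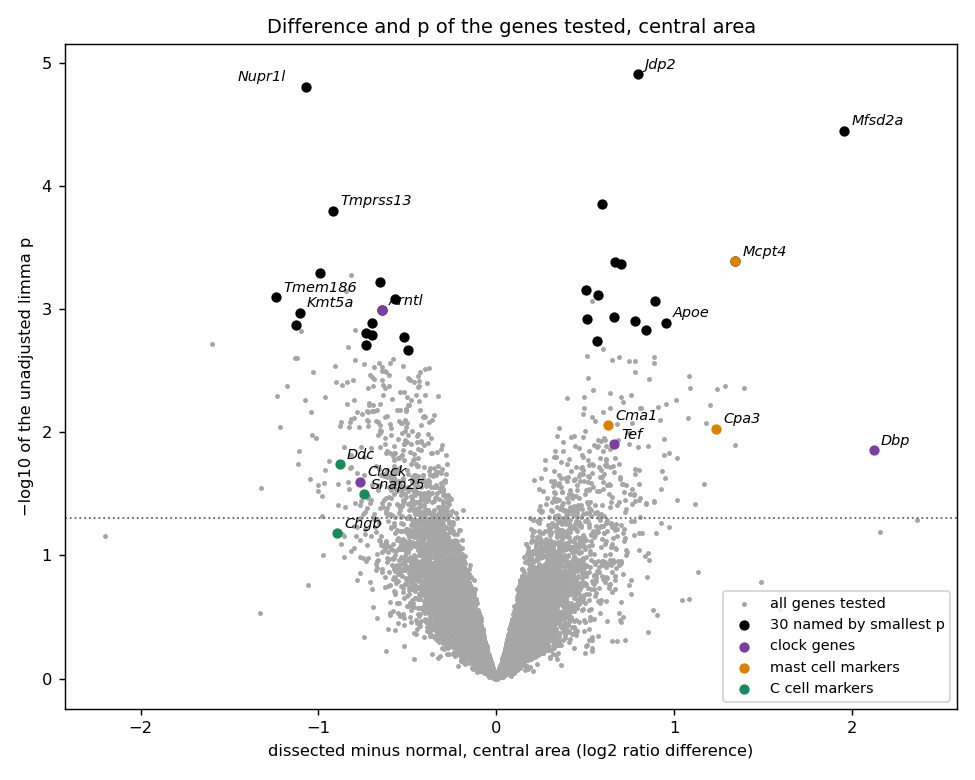
Each point is a gene, with the difference dissected minus normal in the central area (log2 ratio) on the x axis, −log10 of the unadjusted limma p on the y axis, and a dotted line at the 0.05 threshold. Jdp2, Mfsd2a and Nupr1l stand highest, and no gene passed the threshold after adjustment.

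Among genes with an official symbol, the 15 higher and the 15 lower in dissected central areas with the smallest p were followed whatever their adjusted p. Because they were picked for a small p in this contrast, their separation is a description. So is their agreement over slides and settings, which use the same arrays. Of the 15 higher genes, 13 had dissected arrays that all lay above the normal ones, and of the 15 lower genes, 10 had dissected arrays that all lay below. Differences spanned 1.41-fold to 3.88-fold (on the scale of normexp-corrected signals, which understates dim genes), each of the 30 pointed the same way on all 5 slides, and none changed sign under any other setting that gave it a value (36 settings, or 35 for Ccn5 and Apoe).

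**Figure D2:**
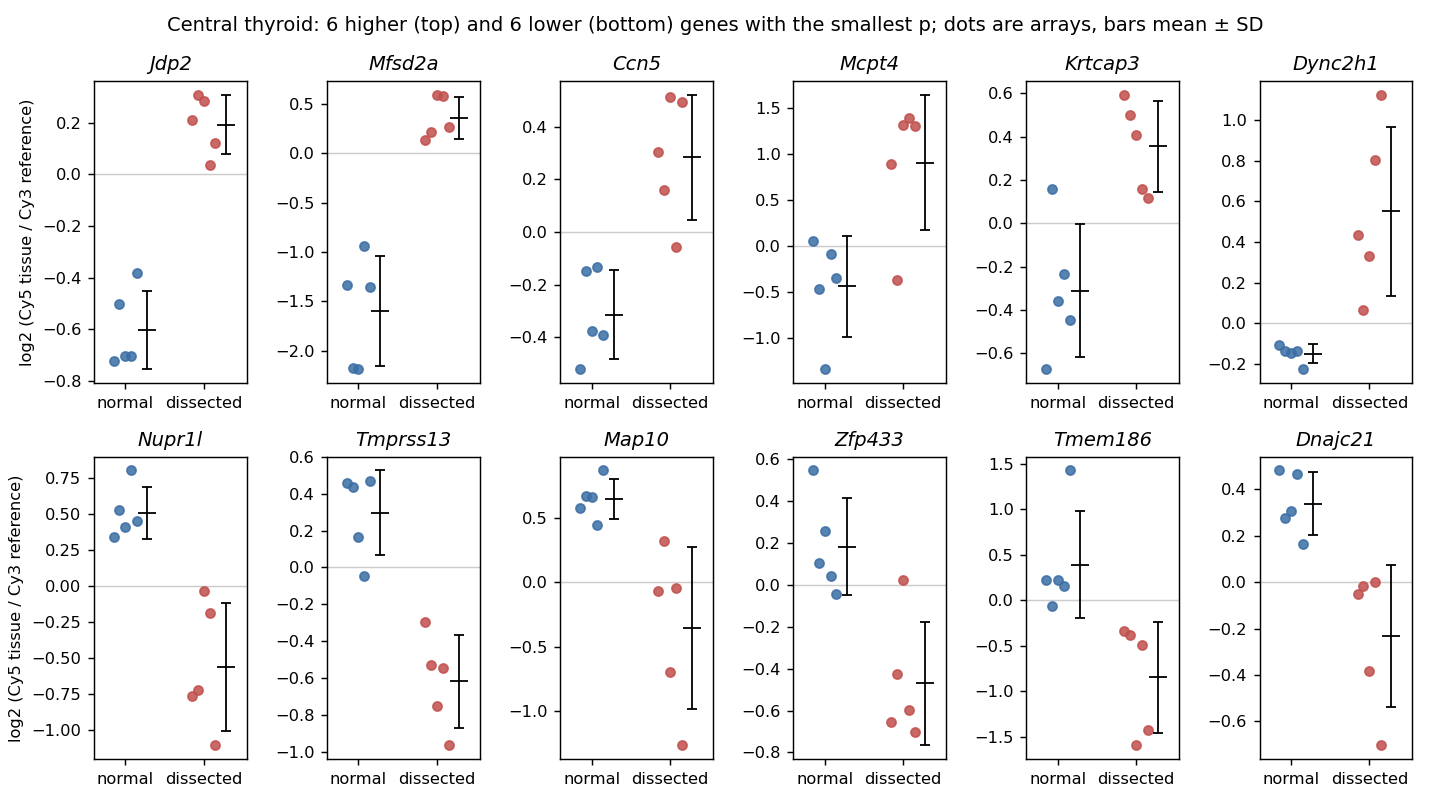
Dots give the log2 ratio of tissue over reference on each central array for the 6 higher (top row) and 6 lower (bottom row) genes with the smallest p, and the bars give the mean ± SD of 5 arrays; each panel has its own y axis. Jdp2 and Mfsd2a show a clear gap between the groups, whereas dissected central 2 lies among the normal arrays for Mcpt4.

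Jdp2, a basic leucine zipper protein that pairs with Jun and represses AP-1 targets, had the smallest p of all genes. It lay at -0.72, -0.50, -0.70, -0.70 and -0.38 on normal central arrays 1 to 5 and at 0.21, 0.31, 0.28, 0.04 and 0.12 on the dissected ones. The groups did not overlap, and every dissected array was above the reference while every normal array was below it. The difference was 0.80 (SE 0.13, 1.74-fold, limma adjusted p = 0.114). In the peripheral area the difference of Jdp2 was 0.05 (SE 0.15), and normal peripheral arrays already lay at -0.05, 0.05 and 0.14. Its probe is at chromosome 12, 83641187 to 83641246 of the mouse build mm7.

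Mfsd2a, a transporter that carries lysophosphatidylcholine with omega-3 fatty acids into cells, had the largest difference of the 30. Normal central arrays lay at -1.34, -2.18, -2.19, -0.93 and -1.35, and dissected central arrays at 0.14, 0.22, 0.59, 0.58 and 0.27. All dissected arrays lay above the reference and all normal arrays well below it, 2 of the latter with a Cy5 spot not well above background. The fitted difference was 1.96 (SE 0.36, 3.88-fold, limma adjusted p = 0.174), and 3.64 with the scanner program's own ratio, which treats dim spots differently. The peripheral difference was 0.81 (SE 0.41), and arrays of the groups overlapped there.

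Nupr1l, a relative of the stress-induced chromatin protein Nupr1, led the lower genes. It lay at 0.34, 0.53, 0.41, 0.80 and 0.45 on normal central arrays and at -0.77, -0.72, -0.03, -0.18 and -1.10 on dissected ones. The groups were apart, with the dissected arrays spread over more than a log2 unit. The difference was -1.07 (SE 0.18, 2.10-fold, limma adjusted p = 0.114), and 2 of the 5 dissected spots were not well above background. It was -0.72 on one scan day and -1.30 on the other. A second probe of this gene, dim on all 10 arrays, gave 0.0041. Nupr1 itself, on the integrated stress response list below, differed by 0.16.

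Apoe, the apolipoprotein that carries cholesterol between cells, lay at -1.08, -0.80, -0.39, -1.46 and -0.89 on normal and 0.23, -0.28, 0.40, -0.31 and 0.11 on dissected central arrays, a 1.94-fold difference (0.95, SE 0.25). The lowest dissected array of Apoe, -0.31, was just above the highest normal one, -0.39. Derl2, which helps pass misfolded proteins out of the endoplasmic reticulum, differed by 0.50 (SE 0.12) and by 0.31 on its other bright probe. Abcd4, a lysosomal transporter involved in vitamin B12 handling, differed by 0.89 (SE 0.22), and Inf2, a formin that assembles actin, by 0.57 (SE 0.15). Dock5, an activator of the small GTPase Rac, differed by 0.78 (SE 0.20). Another probe of Dock5, well above background on 3 normal and 3 dissected arrays, gave 0.08. Ccn5, a matrix-associated protein of the CCN family, differed by 0.60. It cleared background on no normal array and on 2 dissected ones, so the size of the difference is uncertain. Dync2h1, the motor heavy chain of cilia transport, differed by 0.70 on 1 probe, but its other 8 probes, nearly all below background, gave values between -0.13 and 0.10. Medag, a gene linked to fat cell formation, differed by 0.66 on the probe used and by -0.01 on another. The Medag probe used cleared background on 1 normal and 4 dissected arrays, so the size of its difference is also uncertain.

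Of the 15 lower genes, 5 were well above background on all 10 central arrays, against 11 of the higher genes. Tmprss13, a membrane-bound serine protease, lay at 0.46, 0.44, 0.17, -0.05 and 0.47 on normal and -0.30, -0.53, -0.75, -0.55 and -0.96 on dissected central arrays. Every dissected array was below every normal one, and the difference was -0.92 (SE 0.19, limma adjusted p = 0.463). The peripheral area showed a difference of like size, -0.74 (SE 0.22). Tmem186, a mitochondrial protein linked to assembly of respiratory complex I, differed by -1.24 (SE 0.31), with 1 of 5 dissected spots well above background. Map10, a microtubule-associated protein, differed by -0.99 (SE 0.23), Dnajc21, a cofactor of ribosome assembly, by -0.57 (SE 0.14), and Pcf11, a factor of transcription termination, by -0.70 (SE 0.19). Kmt5a, the histone H4 lysine methyltransferase, differed by -1.11 on the probe used and by 0.08 on a second, and Fam219b by -0.52 and 0.31, so for both the probes disagreed in sign.

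Arntl, Tef, Dbp and Clock, all of the circadian clock, were among those at an unadjusted p under 0.05. In this oscillator, Arntl (BMAL1) and Clock form the activator that binds E-box motifs, the PER and CRY proteins inhibit it, and output factors such as Dbp and Tef bind D-boxes, while ROR and REV-ERB proteins act on Arntl through RORE motifs. Measured clock genes were searched on both strands for these motifs in the RefSeq promoter windows (GRCm38.p6, 250 bases before to 50 after a start site), and the matches in Tef and Arntl are shown with the motif in capitals, as the clock genes with the smallest p in each direction. The E-box (CACGTG, a palindrome) begins 127 bases before one Tef start, in the stretch at chr15:81802423-81802672, plus strand. The RORE core (TAGGTCA or its reverse complement TGACCTA) begins 31 bases after the Arntl start, at chr7:113207529-113207558, plus strand.
Tef: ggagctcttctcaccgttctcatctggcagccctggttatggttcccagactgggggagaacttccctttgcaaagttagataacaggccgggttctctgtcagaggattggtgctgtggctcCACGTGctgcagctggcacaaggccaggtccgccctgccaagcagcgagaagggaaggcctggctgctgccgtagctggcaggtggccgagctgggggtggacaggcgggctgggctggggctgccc
Arntl: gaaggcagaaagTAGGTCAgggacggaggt

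Arntl lay at 0.23, 0.26, 0.38, 0.42 and 0.26 on normal central arrays and at -0.14, -0.39, -0.46, -0.46 and -0.22 on dissected ones. The groups did not overlap, and Arntl was above the reference in every normal and below it in every dissected central area. The difference was -0.64 (SE 0.16, 1.56-fold, limma adjusted p = 0.687), 1 of 5 dissected spots being well above background, and it was -0.51 (SE 0.19) in the peripheral area. Clock, which fell outside the rule for named genes and was added after its value was seen, differed by -0.77 (SE 0.31). Its groups overlapped, with dissected central 4 at 0.42, above normal central 1 at 0.35 and normal central 2 at 0.04.

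Dbp had the widest swing of any clock gene. It lay at -2.97, -2.85, -2.55, -0.20 and -2.82 on normal central arrays and at 1.25, 1.095, -1.55, -1.26 and -0.32 on dissected ones. Normal central 4 stood far above the other 4 normal arrays, and the dissected arrays spread widely, with only the first 2 above the reference. The difference was 2.12 (SE 0.78, 4.35-fold, limma adjusted p = 0.812). It was 3.56 on the slides of one scan day and -0.03 on the other, which held arrays 3 and 4 of each group, and 1.24 without the 4 arrays of the series with under 30% of probes above background.

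Values of Dbp in both areas hybridised on 1 slide in 1 state differed little against the range over arrays. Normal peripheral arrays 1 to 3 lay at -2.47, -3.26 and 0.12 on the slides of normal central 1, 2 and 4, and dissected peripheral arrays 1 to 5 lay at 0.99, 0.88, -1.42, -2.10 and -0.65. Over these 8 pairs of areas the largest gap was 0.83, against a range of 4.51 over all arrays. Of all genes, 0.0276% had a smaller ratio of largest gap to range, a comparison made after the values were seen. Whether such a pair came from 1 mouse, and at what time of day tissue was taken, are not in the labels, and the part of either in the difference was not tested.

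**Figure D3:**
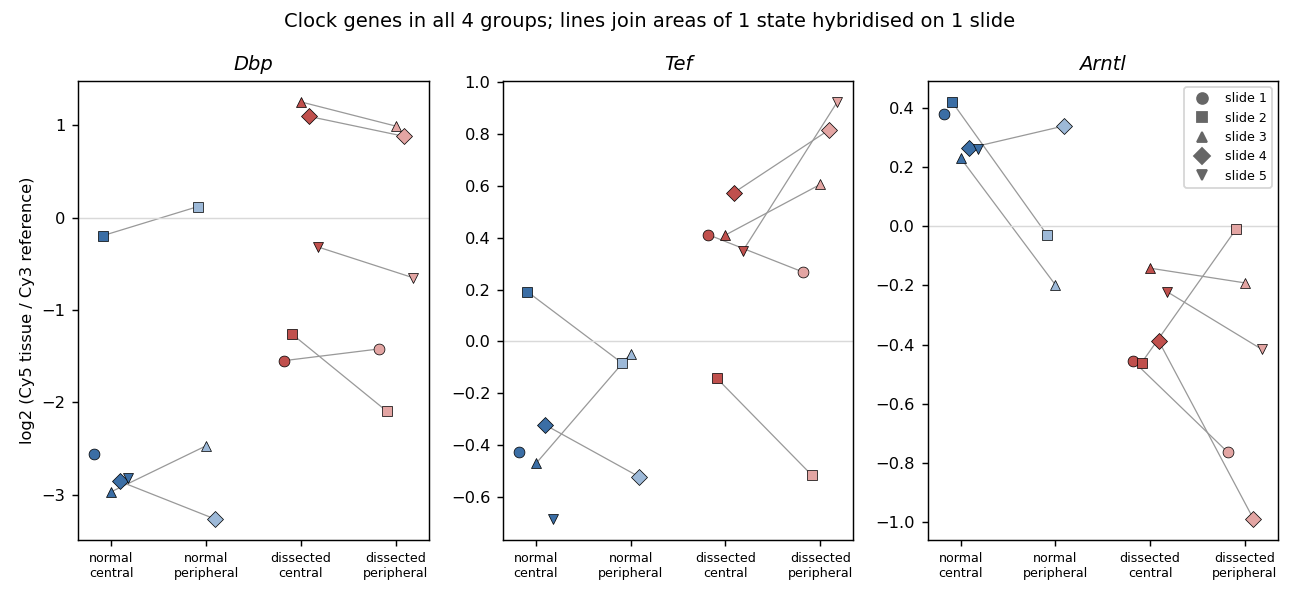
The log2 ratio of tissue over reference of Dbp, Tef and Arntl on all 18 arrays by group, with symbols for the slide and lines joining the central and peripheral areas of 1 state on 1 slide; y axes differ. Dbp of joined areas differed by at most 0.83, whereas normal central arrays ranged from -2.97 to -0.20.

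Tef differed by 0.66 (SE 0.24, 1.58-fold), from -0.34 ± 0.33 (SD, n = 5) to 0.32 ± 0.27 (SD, n = 5). The arrays of slide 2 were the exception in each group, with normal central 4 the highest normal array at 0.19 and dissected central 4 the lowest dissected one at -0.14. Normal central 4 was also the highest normal array for Dbp. The peripheral difference of Tef was 0.64 (SE 0.27). Tef differed by 0.25 on the scan day of arrays 3 and 4 and by 0.94 on the other, and by 0.55 without the 4 weakest arrays. Of 19 clock genes, in a list chosen with earlier results of these data known, 14 were measured. At an unadjusted p under 0.05, 2 were higher and 2 lower, where 1.95% and 3.3% of all genes were. The inhibitors Per1, Per2 and Cry2 differed by 0.08, 0.15 and 0.20, the REV-ERB genes Nr1d1 and Nr1d2 by -0.08 and 0.17, and Nfil3, a repressor at D-boxes, by -0.26, none at an unadjusted p under 0.05. The median of the list was 0.14, against -0.0061 over all genes, and it was 0.01 without dissected central 2 and -0.01 without the 4 weakest arrays. Promoter windows were given for 11 of the 14, in which the E-box occurred for Per1 and Tef, the RORE core for Arntl and Nfil3, and the D-box (TTATGTAA or TTACATAA) for none. The E-box is in 8.09%, the RORE core in 2.97% and the D-box in 1.11% of all 27025 genes with a window.

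The D-box did occur in the window of Jdp2, the gene with the smallest p, which is why its upstream stretch is shown. The match, in capitals, begins 50 bases before the start site, at chr12:85598855-85599104 of GRCm38.p6, plus strand. Of the 30 named genes, 24 had a window, and a D-box was found for Jdp2 and Medag, an E-box for Inf2, Map10 and Medag, and a RORE core for Arntl and Krtcap3.
Jdp2: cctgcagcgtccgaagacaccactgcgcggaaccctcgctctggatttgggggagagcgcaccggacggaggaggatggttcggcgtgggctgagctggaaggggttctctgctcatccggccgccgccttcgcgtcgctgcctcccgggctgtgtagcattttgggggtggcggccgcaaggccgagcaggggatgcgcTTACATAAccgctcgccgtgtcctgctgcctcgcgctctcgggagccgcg

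Among mast cell proteases, the clearest values were those of Mcpt4, which stood high on 4 of 5 dissected central arrays. Mcpt4, a chymase of connective tissue mast cells, lay at 0.06, -0.47, -1.34, -0.08 and -0.35 on normal and at 0.89, -0.37, 1.31, 1.39 and 1.30 on dissected central arrays. Dissected central 2 lay within the normal range and the other 4 dissected arrays above it. The difference was 1.35 (SE 0.31, 2.54-fold, limma adjusted p = 0.687), and without dissected central 2 it was 1.66, at a limma adjusted p of 0.0457. Mcpt4 differed by 2.07 on the scan day of arrays 3 and 4 and by 0.87 on the other. Cpa3, the mast cell carboxypeptidase, differed by 1.24 (SE 0.42) and Cma1, another chymase, by 0.63 (SE 0.21), but both were dim. Cpa3 was well above background on 2 normal and 3 dissected arrays and Cma1 on 1 and 3, so these genes were measured mainly where they were high. On the scan day of arrays 1, 2 and 5 they differed by 0.50 and 0.37. Both were high on dissected central 1, 3 and 4, where Cpa3 lay at 0.99, 1.59 and 1.64, and low on dissected central 2 and 5, at -0.30 and -0.69. In all, 3 of 5 measured mast cell markers were higher at an unadjusted p under 0.05 and none lower, where 1.95% of all genes were higher. That count includes the dim Cpa3 and Cma1, in a list chosen with earlier results of these data known, and is a description. The median, which is the value of the dim Cma1, was 0.63. This median was 1.02 on one scan day and 0.37 on the other, where 1 member was higher, it was 1.82 with the scanner program's ratio and 0.05 over all 7 members with no filter on dim probes. Kit, the stem cell factor receptor, differed by -0.17 and Ms4a2, the beta chain of the IgE receptor, by 0.05, while Tpsb2 and Fcer1a cleared background on fewer than 3 arrays. The mean of the 5 ranged from -0.44 to 0.19 on normal and from -0.11 to 0.87 on dissected central arrays. In the peripheral area Mcpt4 differed by -0.36 (SE 0.36), with an interval that includes 0. The difference between the areas was 1.71 (SE 0.47), with a limma adjusted p of 0.789.

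C cell genes lay lower on dissected central 1 and 2, with dissected central 2 far below the rest. Of 16 measured C cell markers, 15 had a negative difference, where 7527 of all 14683 genes had one, and the median was -0.64. At an unadjusted p under 0.05, where 3.3% of all genes were lower, 2 of the markers were. Those were Ddc, the decarboxylase that makes amines, at -0.88 (SE 0.34), and Snap25, a vesicle fusion protein, at -0.74 (SE 0.32). Chgb, a granin of secretory granules, differed by -0.89 (SE 0.46) and the prohormone convertase Pcsk2 by -0.72 (SE 0.42). The mean of the list was 0.61, 0.76, 1.32, 0.56 and 0.57 on normal and 0.02, -1.02, 0.95, 0.60 and 0.61 on dissected central arrays. Dissected central 1 and 2, the arrays with the fewest probes above background, were the low ones, and the other 3 lay within the normal range. Without dissected central 2 the median was -0.19, with 12 of 16 members negative, without normal central 3 it was -0.37, and without the 4 weakest arrays it was -0.07.

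Counts for other cell types are at an unadjusted p under 0.05, where 1.95% of all genes were higher and 3.3% lower. Among 12 macrophage markers 2 were higher, Adgre1, a surface receptor of macrophages, by 0.91 (SE 0.29) and the protease Ctss by 0.61 (SE 0.24). The other 10 macrophage markers spanned -0.32 to 0.43, and the list median of 0.13 was -0.01 on one scan day and 0.36 on the other. Of 12 endothelial markers 2 were higher, the TGF-beta coreceptor Eng by 0.48 (SE 0.19) and the VEGF receptor Flt1 by 0.54 (SE 0.21). Eng was dim, well above background on 2 normal and 2 dissected arrays, and other bright probes of Flt1 gave 0.68, 0.12 and 0.47. Of 6 measured lymphocyte markers 2 were lower, the T cell kinase Lck by -0.57 (SE 0.23) and the B cell receptor chain Cd79b by -0.54 (SE 0.23), the latter at 0.08 on one scan day. Lck ranged from -1.38 to -0.044 over 36 other settings and was well above background on 3 dissected arrays. Of 8 airway markers, Tekt1, a tektin of cilia, was lower by -1.05 (SE 0.42), and Bpifa1, an airway secretory protein, differed by -2.20 (SE 1.14). Genes of skeletal muscle, parathyroid and airway varied between single captured areas, with a muscle list mean from -1.46 to 0.88 on normal and from -1.36 to 1.00 on dissected arrays, a parathyroid mean above the reference on normal central 3 alone, and an airway mean from -1.92 to 0.45 on normal and from -2.31 to 1.54 on dissected arrays. Fibroblast, fat, nerve and red blood cell markers had no member at an unadjusted p under 0.05. Here and for the genes above, the part that the mix of captured cells has in a difference was not tested.

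**Figure D4:**
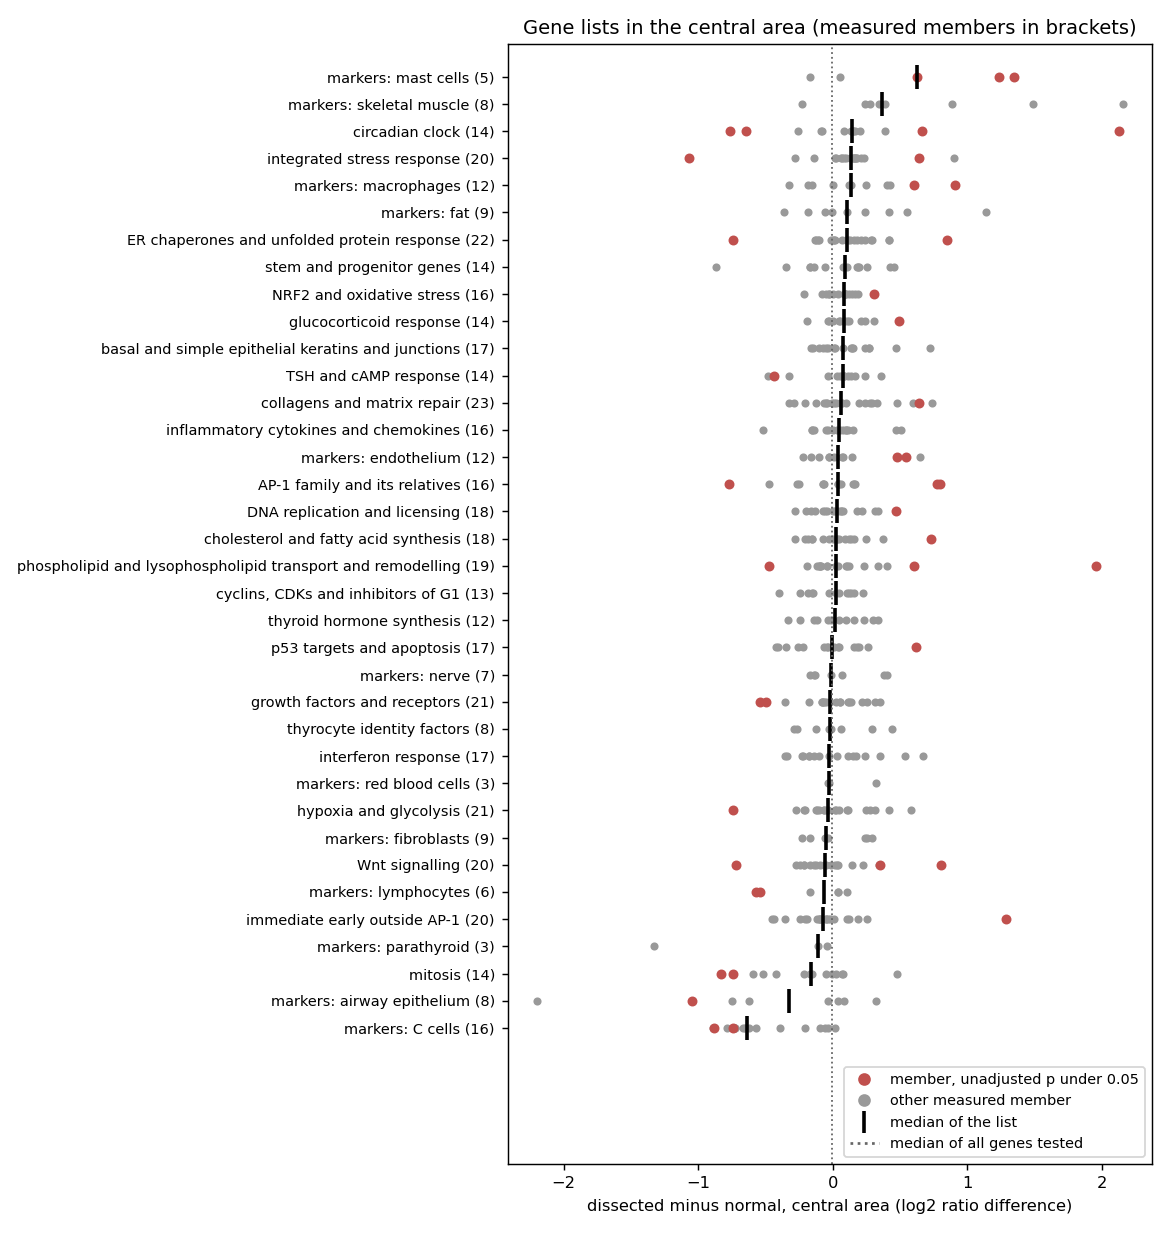
Each dot is a measured member of 1 of 36 gene lists, placed by its difference dissected minus normal in the central area (log2 ratio); red dots had an unadjusted limma p under 0.05, black bars are list medians and the dotted line is the median of all genes. Mast cell markers had the highest median, 0.63, and C cell markers the lowest, -0.64.

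None of the 12 measured genes of hormone synthesis had an unadjusted p under 0.05, and their median was 0.02, with a range from -0.33 for Tg to 0.34 for the deiodinase Dio1. Tshr, the thyrotropin receptor, differed by -0.12 (SE 0.17), and Duox2, which makes the hydrogen peroxide for iodination, by 0.05 (SE 0.16). The 8 measured identity factors had a median of -0.02, with Nkx2-1 at -0.13. Of 14 genes of the thyrotropin and cAMP response, Prkar1a, the regulatory subunit that holds protein kinase A inactive, was lower by -0.44 (SE 0.19), and the median was 0.08, or -0.10 with median centring.

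Of 18 genes of DNA replication, with a median of 0.03, Ccne1, the cyclin that starts S phase, was higher by 0.47 (SE 0.19), while the licensing genes Mcm2 to Mcm7 lay between -0.16 and 0.07, and Pcna, the replication clamp, differed by 0.22 (SE 0.20). Of 14 mitosis genes, 2 were lower and none higher at an unadjusted p under 0.05, with a median of -0.16. These were the cyclin Ccnb2 at -0.83 (SE 0.35) and the kinesin Kif20a at -0.74 (SE 0.30). Ccnb2 was well above background on 4 normal and 2 dissected arrays and Kif20a on 4 and 1, so both sizes are uncertain. Another Kif20a probe gave -0.22. Mki67, the proliferation antigen Ki-67, differed by 0.48 (SE 0.43). The mitosis median was 0.02 without normal central 3, the array with the highest Kif20a and Ccnb2, at 1.41 and 1.06. Cyclins, CDKs and inhibitors of G1 had no member at an unadjusted p under 0.05 among 13, with Ccnd1 at 0.16. Of p53 targets, Phlda3, an inhibitor of AKT, was higher by 0.62 (SE 0.23) among 17 measured.

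Immediate early and stress genes gave isolated differences. In the AP-1 list, Jdp2 and Maff were higher and Batf lower among 16, while Fos, Fosb, Jun, Junb and Jund lay between -0.47 and 0.16. Maff, a small MAF protein, ranged from -0.82 to -0.31 on normal and from -1.003 to 1.36 on dissected central arrays, so the dissected arrays lay on both sides of the normal ones, and its difference was 0.78 (SE 0.33) or 0.30 without the 4 weakest arrays. Ccn2, or connective tissue growth factor, was the only one of 20 other immediate early genes at an unadjusted p under 0.05. It lay at -1.26, -0.58, -0.49, -0.70 and -1.82 on normal and -0.58, -0.45, 1.14, 0.51 and 0.98 on dissected central arrays, a difference of 1.29 (SE 0.39, 2.44-fold, limma adjusted p = 0.687). Dissected central 1 and 2 lay within or just above the normal range and the other 3 well above it, and the peripheral difference was 1.30 (SE 0.45). Egr1, by contrast, differed by -0.04.

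Of 20 measured genes of the integrated stress response, 17 had a positive difference, with a median of 0.13, where 7156 of all 14683 genes had one. With median centring the list median was -0.07, beside -0.15 for all genes. Cebpb, a transcription factor of the acute phase and of ATF4 signalling, was higher by 0.64 (SE 0.20), with groups that did not overlap, and Chac1, which degrades glutathione, differed by 0.90 (SE 0.46). Nupr1l was the only member lower at that threshold, and Atf4 and Ddit3 differed by 0.16 and 0.07. Of 22 genes of the unfolded protein response 16 had a positive difference, with a median of 0.10, which was -0.12 with median centring, 0.31 on the scan day of arrays 3 and 4 and -0.08 on the other. Herpud1, which supports degradation from the endoplasmic reticulum, was higher by 0.85 (SE 0.31), and the chaperone Hspa5 differed by 0.24 (SE 0.32). Atf6, a sensor of the response, was lower by -0.74 (SE 0.34) on one probe and higher by 0.31 on another. Nqo1, a quinone reductase under NRF2, was higher by 0.31 (SE 0.13) among 16 oxidative stress genes, whose median was 0.09. Tsc22d3, the glucocorticoid-induced leucine zipper protein, was higher by 0.49 (SE 0.15), by 0.51 and 0.68 on its other bright probes, and by 0.69 (SE 0.18) in the peripheral area, while Fkbp5, another glucocorticoid target, differed by -0.03.

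Signalling and metabolic lists held few members at an unadjusted p under 0.05. In Wnt signalling, the receptor-degrading ligases Rnf43 and Znrf3 had opposite signs, at -0.72 (SE 0.23) and 0.35 (SE 0.14), the receptor Fzd4 differed by 0.80 (SE 0.35) and the target gene Axin2 by -0.17. Among growth factors, Fgf1 was lower by -0.50 (SE 0.17), with groups that did not overlap, and Igfbp5, which binds insulin-like growth factors, was lower by -0.54 on the probe used and higher by 0.11 on another. Ankrd37, a target of hypoxia-inducible factor, was lower by -0.74 (SE 0.21), with 1 of 5 dissected spots well above background. Slc2a1, Ldha and Pgk1 lay between -0.13 and 0.04. Of sterol genes only Fdps was higher, by 0.73 (SE 0.32). Beside Mfsd2a, the phospholipid list held Agpat3, an acyltransferase of phosphatidic acid synthesis, higher by 0.60 (SE 0.17), and the phospholipase Pla2g4a, lower by -0.48 (SE 0.21). Timp2, an inhibitor of matrix proteases, was higher by 0.64 (SE 0.25) among 23 matrix genes. Genes of cytokines, interferon response, keratins and stem cells had no such member. In all, 23 of 36 lists had 1 or more members at an unadjusted p under 0.05, to be read against the 5.25% of all genes.

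The change in the central area was then compared with that in the peripheral area, which shares no array with it. Deviations of dissected central and dissected peripheral arrays on 1 slide correlated by 0.07 to 0.21 across genes, against -0.17 to 0.08 for arrays on different slides, and the fit treats them as independent. No gene had a difference between the areas at a limma adjusted p under 0.05, the smallest being 0.789, and 856 genes (5.83%) had an unadjusted p under 0.05. Of the 30 named genes, 20 pointed the same way in the periphery and 10 the opposite way. In the periphery 5 had an unadjusted p under 0.05, where 8.34% of all genes did. For the difference between areas 15 of the 30 did, but they were picked on the central difference, which is part of it. Medag had the smallest p of the 30 for a difference between areas, at 0.66 (SE 0.17) in the central and -0.51 (SE 0.20) in the peripheral area. Its probe was well above background on 1 normal and 4 dissected central arrays, so these sizes are uncertain. Mfsd2a, Apoe, Dock5, Arntl and Tmprss13 had like signs in both areas. Over all genes, the changes in the 2 areas had a Pearson correlation of 0.07, a description across genes, which are not independent.

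**Figure D5:**
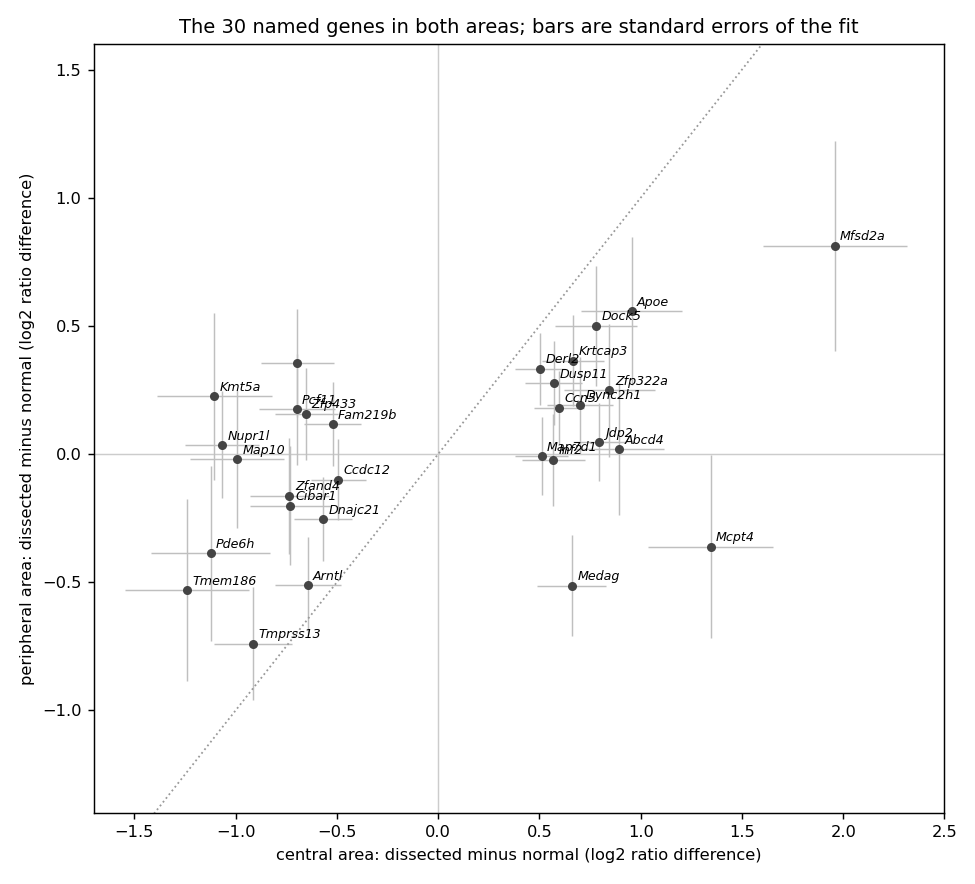
The 30 named genes by their difference dissected minus normal in the central (x axis) and peripheral area (y axis), both in log2 ratio, with bars for the standard error of the fit and a dotted line of equal change; 1 point has no name. Mfsd2a lies at 1.96 and 0.81, while Jdp2 and Nupr1l lie near 0 on the peripheral axis.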

How the data were processed

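Per the file headers, the deposited scanner output lists Cy5 and Cy3 spot and background intensity as read by Feature Extraction 9.5.1.1 (8.5.1.1 per the submitters' processing notes), together with the program's deposited log10 ratio and flags. A table of linear ratios by the authors served as an alternative. Intensities were background-corrected here with normexp (offset 50) and loess-normalized within arrays, control spots having weight 0 and non-uniform spots being left out (at most 108 per array). Of 41174 probes, 19107 had Cy5 well above background on at least 3 arrays, and the brightest stood for each of 14683 genes. Names came from RefSeq by accession (23075 probes), current symbol (6582) or older symbol (3077), and 8440 kept the file's name. Probe positions are on mm7, for which no genome was used here, so exons and untranslated regions were not determined.

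limma 3.58.1 in R 4.3.3 fitted 4 group means over 18 arrays, with eBayes and Benjamini-Hochberg adjustment over all genes. All p-values are two-sided and measure the spread between captured areas. The script was tested on simulated data. The genes named were the 15 higher and 15 lower with the smallest p and an official symbol, the 3 members of each of 36 lists with the smallest p, and Tg, Pax8 and Calca. Some items the rule selects are not reported here. Members and lists were chosen with earlier results of these data known, and members shown for context were added after their values were seen. Alternatives covered background correction, normalization, filters, blocks for slide, scan day and replicate number, array weights and each array left out. The main fit did not pair central areas by their shared numbers. Deviations of normal and dissected central arrays of the same number correlated by -0.05 to 0.23, against -0.14 to 0.09 for those on other slides. Those of dissected central and peripheral arrays of the same number correlated by 0.07 to 0.21. Number and slide coincide for these arrays, so the correlations cannot show whether a shared number means more than a shared slide.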

Additional observations from a re-analysis of the deposited data

Results flagged for a closer look

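Single arrays stood apart from the other 4 of their group for 6 of 138 groups examined, by the gap to the nearest array as a share of the range, and chance alone flags about 1 in 20 groups. Dissected central 2 had Mcpt4 at -0.37, where the other dissected arrays had 0.89 to 1.39. Normal central 4 had Dbp at -0.20, where the others had -2.97 to -2.55. Normal central 5 had Tmem186 at 1.43 and Batf at 1.05, where the others had at most 0.23 and 0.28. Normal central 2 had the lowest Nqo1, -0.49, and normal central 1 the highest Cpa3, 0.56. The cause of these values was not tested.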

How the results depend on the processing

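No gene was called under most settings. Array weights called 2 genes, Jdp2 (0.82) and Nupr1l (-1.01), both at a limma adjusted p of 0.0323. Leaving out 1 array at a time gave 0 to 1 calls, namely Mcpt4 without dissected central 2 and Nupr1l without dissected central 3 (-1.20, limma adjusted p = 0.0373). Genes at an unadjusted p under 0.05 numbered 663 to 910 with 1 array left out and 1442 with no filter on dim probes, which tests 27669 genes. The difference between areas gave 0 calls with any array left out and 4 with median centring, Ly6g6e, Agfg1, Apool and Trp53inp1, whose cause was not tested. With the replicate number as a block, 955 genes had an unadjusted p under 0.05 and none was called. For central arrays this block is also the slide, and the labels do not say whether arrays of 1 number share more than that. The fit changed no call, that between areas included. Of 69 genes followed under 36 settings, 64 kept their sign. Tg was 0.011 with Cy5 alone. On scan day 1 alone, Dbp was -0.031, Cd79b 0.084 and Calca 0.54, and with 1 array left out Calca (-0.67 with all) ranged from -1.12 to 0.37, the latter without dissected central 2, and was 0.37 without the 4 weakest arrays. Pax8 was 0.019 with scaling, 0.014 with Cy5 alone, 0.015 without the 4 weakest arrays and -0.12 to 0.062 with 1 array left out, positive without normal central 3, normal central 5 or dissected central 1. Omitting the 4 weakest arrays was chosen after seeing the data. Signal over background limits the dim genes: of the 30 named, 16 were well above background on all 10 central arrays.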
